A study of Homo sapiens with 6 samples.

Results

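Transcripts of 10 genes that make, hold back, receive and pass on the transforming growth factor beta (TGF-beta) signal were followed in H1975 cells, a human non-small cell lung cancer line with a mutant EGFR. The genes were taken by symbol, and earlier results of these data were known when they were chosen. They are the ligands TGFB1, TGFB2, TGFB3 and INHBA and the latent binding protein LTBP1. The others are the receptors TGFBR1, TGFBR2 and TGFBR3 and the mediators SMAD2 and SMAD3. All 10 were found among the 27216 rows of the expression table. The table holds 3 parental samples, labelled as 0 h of osimertinib (Osi, an inhibitor of mutant EGFR) with columns named for DMSO, and 3 adapted samples, labelled as 72 h of Osi at 1000 nM. All samples are of the same line, and no genetic change is named for either group. Dead cells were washed off before RNA was taken, so adapted RNA is RNA of the cells that were still attached. Because parental samples were named for 0 h, Osi and the time spent in culture cannot be told apart, and in bulk RNA a change in the mix of cells cannot be told apart from a change in RNA per cell. Whether the replicates came from separate cultures is not stated, so the tests measure the spread between these samples only, which may be technical.

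TGF-beta ligands are secreted in a latent form, held by their own propeptide, and latent binding proteins tether that complex to the matrix until integrins, thrombospondin or proteases release the ligand. Free ligand binds the type II receptor TGFBR2, which recruits and phosphorylates the type I receptor TGFBR1, and TGFBR1 then phosphorylates SMAD2 and SMAD3, which enter the nucleus with SMAD4. Activin A, the dimer of the INHBA product, reaches the same SMAD2 and SMAD3 through activin receptors. In epithelial tumor cells the pathway is known for slowing the cell cycle and for turning on matrix and mesenchymal genes.

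The 10 transcripts did not move as a block. TGFB2 and INHBA were the members with the highest fold in adapted cells, TGFBR1 and TGFBR2 rose less, and SMAD3 and, less stably, TGFB1 fell. Values are log2(FPKM + 1), where FPKM counts read fragments per length of transcript and per library size, a unit taken from the values because the table does not name it. Log2 fold changes are differences on this scale, where the added 1 makes them smaller than the ratio of FPKM when values are low. The depth of the libraries is unknown. Rows with a mean of at least 1 on this scale were tested with limma, a linear model with a variance estimate shared across rows, and a row was called when its Benjamini-Hochberg adjusted p over all 12656 tested rows was under 0.05. Of the 10 members, 7 passed this filter. The test called 4 of these higher in adapted cells, where 30.7% of all tested rows were called higher, and 2 lower, where 26.2% of all were. The 4 include INHBA, which passed the filter only through its adapted samples. SMAD2 was not called. The values of the 3 parental and the 3 adapted samples did not overlap in any of the 7 tested members, nor in 66.3% of all tested rows. The difference between the groups is broad over the table, and these counts are to be read against those shares.

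**Figure D1:**
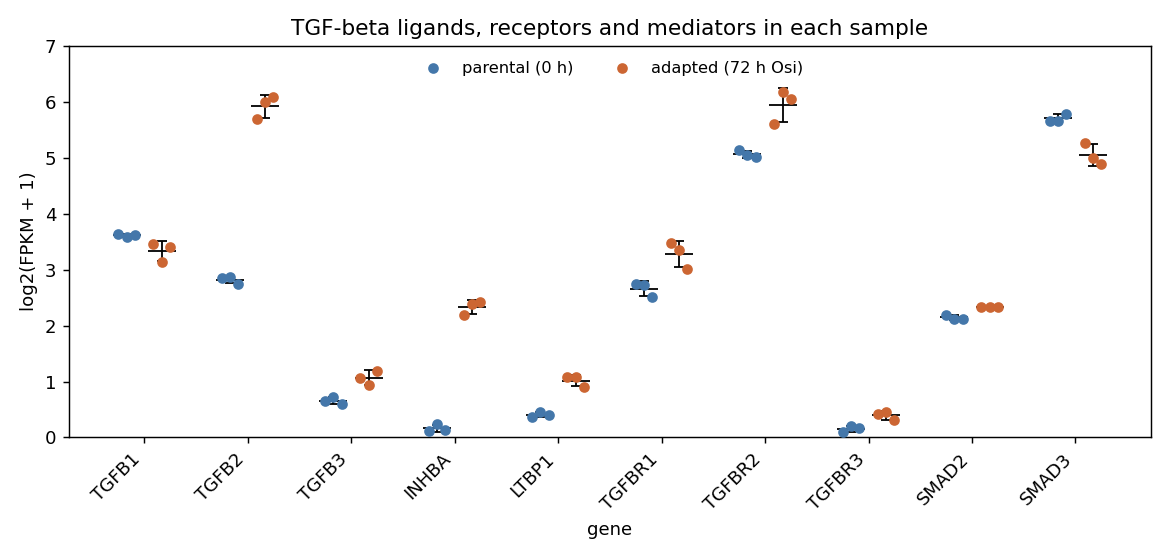
Values of the 10 genes in each sample, as log2(FPKM + 1), with a point for each of the 3 parental (blue) and 3 adapted (orange) samples, a line for each group mean and error bars for the SD. The points of the groups do not overlap for any of the 10 genes, and the means differ by 0.19 for SMAD2 and by 3.10 for TGFB2, the smallest and the largest difference among the 10.

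Promoters of the members were read from RefSeq (GRCh38.p14) as windows of 300 bases, 250 before and 50 after each annotated transcription start. All 10 members had a window, 26 in all. Windows of TGFB2 and INHBA, the ligands that rose in the filtered test, of TGFB1, which fell, and of the type II receptor are printed here because the results on ligand make-up and receptors turn on these genes. They lie at chr1:218345086-218345385 (plus strand), chr7:41703041-41703340 (minus strand), chr19:41353873-41354172 (minus strand) and, for the TGFBR2 window with a match, chr3:30606351-30606650 (plus strand). Each is written 5′ to 3′ along the gene, and capitals mark a match to TGANTCA (the AP-1 motif), CATTCC (the TEAD motif) or CAGACA (a SMAD motif), each searched on both strands.
TGFB2: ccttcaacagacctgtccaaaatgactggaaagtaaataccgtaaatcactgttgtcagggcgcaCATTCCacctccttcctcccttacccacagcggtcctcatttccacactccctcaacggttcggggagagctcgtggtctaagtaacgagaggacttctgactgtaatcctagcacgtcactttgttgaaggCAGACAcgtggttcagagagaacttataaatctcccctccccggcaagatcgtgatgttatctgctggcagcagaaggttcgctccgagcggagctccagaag
INHBA: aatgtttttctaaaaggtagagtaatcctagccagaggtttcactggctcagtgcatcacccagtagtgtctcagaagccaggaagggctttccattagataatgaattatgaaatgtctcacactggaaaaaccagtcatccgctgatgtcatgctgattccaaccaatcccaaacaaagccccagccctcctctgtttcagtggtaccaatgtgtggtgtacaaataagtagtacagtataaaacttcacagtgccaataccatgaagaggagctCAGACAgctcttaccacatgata
TGFB1: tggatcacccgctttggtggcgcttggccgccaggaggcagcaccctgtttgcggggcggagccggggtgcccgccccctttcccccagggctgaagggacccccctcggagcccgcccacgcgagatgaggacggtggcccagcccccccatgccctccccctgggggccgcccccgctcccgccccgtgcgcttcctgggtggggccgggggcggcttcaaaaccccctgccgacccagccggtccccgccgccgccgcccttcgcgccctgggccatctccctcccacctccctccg
TGFBR2: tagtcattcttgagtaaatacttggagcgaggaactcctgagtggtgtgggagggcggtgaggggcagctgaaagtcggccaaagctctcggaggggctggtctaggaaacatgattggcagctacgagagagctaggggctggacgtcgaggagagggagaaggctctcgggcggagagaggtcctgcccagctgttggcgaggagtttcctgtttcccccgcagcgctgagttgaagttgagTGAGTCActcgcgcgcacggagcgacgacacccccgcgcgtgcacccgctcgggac

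The TGFB2 window held CATTCC at position -185 and CAGACA at position -53, counted from the start, with the first transcribed base as 1. The INHBA window held CAGACA at position 28. In the printed TGFBR2 window TGAGTCA lay at position -6, and the TGFB1 window held none of the 3 motifs. The other TGFBR2 window, not printed, held none of them either. The other AP-1 match among the members was in a window of SMAD3, which fell. Among the 26 windows of the members, 2 held the AP-1 motif, 2 the TEAD motif and 7 the SMAD motif. The AP-1 motif is held by 7.71% of the 35116 windows of this length in the RefSeq table, the TEAD motif by 14.0% and the SMAD motif by 16.9%. These are matches of letters only, several windows of 1 gene overlap, and binding was not measured.

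TGFB2, the ligand that depends most on the co-receptor TGFBR3 for receptor binding, rose in adapted cells. Its FPKM was 6.17, 6.35 and 5.73 in parental samples and 50.7, 63.0 and 66.8 in adapted samples. Every adapted sample was thus far above every parental sample, with adapted replicate 1 the lowest of its group. On the log2(FPKM + 1) scale the mean went from 2.82 ± 0.07 to 5.92 ± 0.21 (SD, n = 3 each). The log2 fold change was 3.10 (SE 0.11, 95% confidence interval 2.85 to 3.35; limma, adjusted p = 2.18e-06). The mean FPKM went from 6.08 ± 0.317 to 60.1 ± 8.39 (SD, n = 3 each), a ratio of 9.89. In the GENCODE v29 annotation of GRCh38 the gene spans chr1:218346235-218444619 on the plus strand, and its exons overlap those of TGFB2-OT1 on the same strand, which has no row in the table, so reads of that transcript could have been counted as TGFB2. The printed promoter window lies wholly before this span. The RefSeq start from which its motif positions were counted is thus outside the gene as annotated there.

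TGFB1, the ligand most widely made by epithelial and immune cells, was at 3.64, 3.59 and 3.61 in parental samples and at 3.46, 3.13 and 3.41 in adapted samples. All adapted values lay below the parental ones, with adapted replicate 2 the farthest. The log2 fold change was -0.28 (SE 0.10, 95% confidence interval -0.51 to -0.06; limma, adjusted p = 0.0377), with an FPKM of 11.3 ± 0.226 in parental and 9.13 ± 1.21 in adapted samples. This call was lost without adapted replicate 2 (adjusted p = 0.0562) and without any of the parental samples (adjusted p of 0.11, 0.0875 and 0.0959 without parental replicate 1, 2 and 3). The gene lies at chr19:41301587-41353911 on the minus strand and shares exonic bases with HNRNPUL1 on the other strand. Strandedness of the counting is not given in the sources used here, so reads of these genes cannot be told apart in the shared bases. HNRNPUL1 had a mean of 6.28 in each group (log2 fold change -0.00037; limma, adjusted p = 0.996).

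TGFB3, the third isoform, was low, at 0.65, 0.72 and 0.60 in parental samples and 1.07, 0.93 and 1.20 in adapted samples. The adapted values were all higher, but the mean over the 6 samples was under the filter. LTBP1 and TGFBR3 were under it too. When limma was run on all 27216 rows without the filter, these 3 were called higher, and 15.9% of all rows were. In that fit the log2 fold change of TGFB3 was 0.41 (SE 0.08; limma, adjusted p = 0.0220). The gene lies at chr14:75958099-75982991 on the minus strand. Its exons, and those of SMAD3 and LTBP1, overlap an antisense gene that has no row in the table (TGFB3-AS1, AC087482.1 and AC019127.1), so reads of that gene could have entered their values if counting did not use strand.

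The make-up of the TGF-beta ligand pool therefore differed between the groups. TGFB2 made up 33.8%, 35.2% and 32.8% of the summed FPKM of TGFB1, TGFB2 and TGFB3 in parental samples, and 82.0%, 87.9% and 86.0% in adapted samples. TGFB1 made up 62.8% ± 1.51 (SD, n = 3) of that sum in parental and 13.1% ± 2.78 (SD, n = 3) in adapted samples, so that the isoform with the highest level was TGFB1 in each parental sample and TGFB2 in each adapted sample. The FPKM ratio of TGFB2 to TGFB1 was 0.537, 0.575 and 0.510 in parental samples and 5.06, 8.12 and 6.95 in adapted samples. These shares and ratios are formed within a sample, so a scaling factor on the FPKM of a whole sample does not enter them. The sum itself was 17.9 ± 0.395 FPKM in parental samples and 70.4 ± 7.98 FPKM in adapted samples (SD, n = 3 each), and did not overlap. The share of TGFB3 was 3.23% ± 0.309 in parental and 1.57% ± 0.269 in adapted samples (SD, n = 3 each) although its own FPKM was higher, 1.10 against 0.578, because the sum had grown more.

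**Figure D2:**
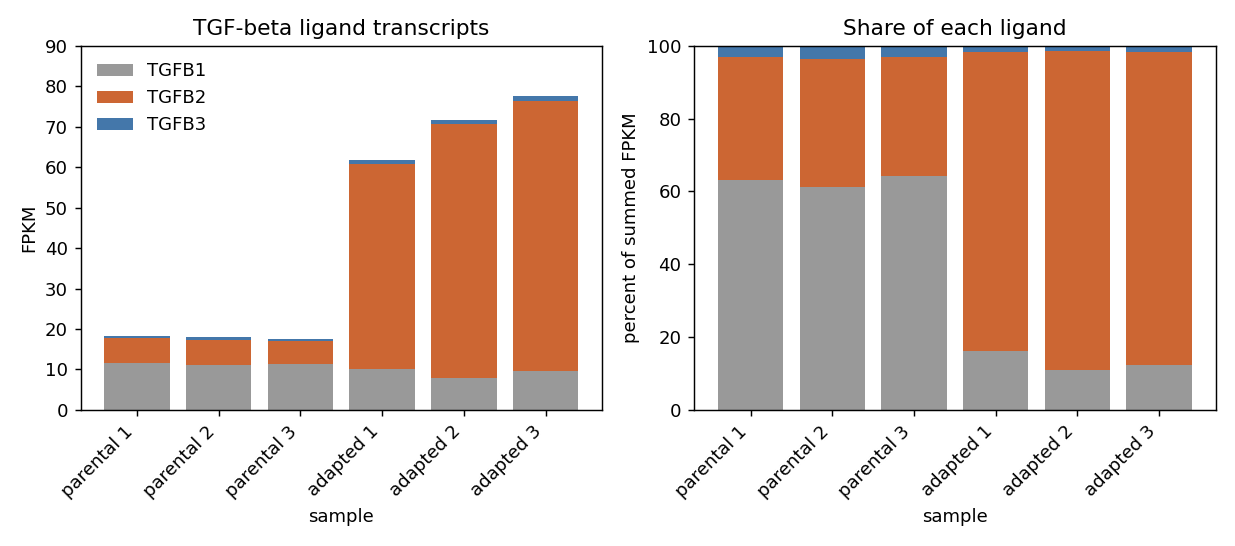
FPKM of TGFB1, TGFB2 and TGFB3 stacked for each sample (linear axis from 0), and the share of the sum held by each ligand. The stack of each adapted sample lies between 61.8 and 77.7 FPKM, against a mean of 17.9 FPKM in parental samples, and TGFB2 fills between 82.0% and 87.9% of it.

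INHBA, the activin A subunit, was almost undetected in parental cells, at 0.11, 0.24 and 0.14, and stood at 2.19, 2.38 and 2.42 in adapted samples. No parental sample came near an adapted one. The log2 fold change was 2.17 (SE 0.10, 95% confidence interval 1.94 to 2.39; limma, adjusted p = 5.78e-06). Since INHBA passed the filter on low values only through those adapted samples, it could hardly have been tested without a difference. Its FPKM was 0.120 ± 0.0507 in parental and 4.04 ± 0.410 in adapted samples (SD, n = 3 each), a ratio of 33.7 that rests on a parental level close to 0. The added 1 compresses such a change, and with a pseudocount of 0.1 the log2 fold change was 4.25. The gene lies at chr7:41667168-41705834 on the minus strand, and the printed promoter window falls inside that span.

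INHBB, which encodes the other common activin subunit and is no member, was at 1.22, 1.19 and 1.18 in parental samples and at 3.17, 4.74 and 4.84 in adapted samples. It rose by a log2 fold change of 3.05 (SE 0.41; limma, adjusted p = 6.31e-04), with adapted replicate 1 well below the other adapted samples. INHBA and INHBB together came to 1.41 ± 0.0445 FPKM in parental samples (SD, n = 3) and to 11.6, 29.9 and 32.0 FPKM in adapted samples. INHBA made up 30.9% of that sum in adapted replicate 1 and 14.0% and 13.6% in the others, against 5.79%, 12.1% and 7.35% in parental samples. The genes whose products bind and block activins were higher as well: FSTL3 rose by 3.47 (limma, adjusted p = 7.66e-07), and FST, follistatin, which was under the filter, went from 0.12 to 1.02 and was called in the fit without it (log2 fold change 0.90; limma, adjusted p = 0.0014). The difference in log2 value between INHBA and FST was 0.00, 0.14 and -0.03 in parental samples and 1.28, 1.25 and 1.40 in adapted samples. Both genes were near the floor in parental samples, with a mean FPKM of 0.120 for INHBA and 0.0887 for FST. There the added 1 keeps such a difference small whatever the ratio of the genes, so the parental and adapted differences do not compare like with like. FST and FSTL3 summed to 2.50 ± 0.127 FPKM in parental and 37.9 ± 3.55 FPKM in adapted samples (SD, n = 3 each).

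LTBP1, which anchors latent TGF-beta in the matrix, was low in both groups, at 0.36, 0.46 and 0.40 in parental and 1.07, 1.07 and 0.89 in adapted samples. It was higher in each adapted sample, and the fit without the filter gave a log2 fold change of 0.61 (SE 0.06; limma, adjusted p = 0.00377). The gene, at chr2:32946972-33399509 on the plus strand, was at 1.02 ± 0.142 FPKM in adapted samples (SD, n = 3). In a list of 15 genes for latent storage and activation, 8 were tested, of which 5 rose, 1 fell and 2 were not called, with a median log2 fold change of 0.44 against 0.03 over all tested rows, of which 30.7% rose and 26.2% fell. THBS1, thrombospondin-1, which activates latent TGF-beta and is also induced by it, rose from 2.14 ± 0.04 to 6.40 ± 0.13 (SD, n = 3 each; log2 fold change 4.27; limma, adjusted p = 2.18e-07). LTBP2, a matrix protein of the same family, rose from 1.40 to 2.89 and ITGB8, an integrin subunit, rose from 1.73 to 2.76. Release of TGFB1, TGFB2 or TGFB3 from its latent complex was not measured. LTBP4 and ITGAV made up the rest of the 5. LTBP3, a binding protein that also carries latent TGF-beta, was the gene that fell (log2 fold change -0.29; limma, adjusted p = 0.00652). ITGB6 and FURIN were the 2 not called. Of the genes under the filter, the fit without it called FBN1 and FBN2 higher and MMP14 lower. Their log2 fold changes were 0.86, 0.12 and -0.39 (limma, adjusted p = 0.0287, 0.0111 and 0.00171). LTBP4, ITGAV, ITGB6, FURIN, FBN1, FBN2 and MMP14 are outside the rule by which genes were named and were added after their values were seen.

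The signalling receptors TGFBR1 and TGFBR2 were both higher in adapted cells, by less than TGFB2 and INHBA. TGFBR2, the receptor that binds the ligand first, was at 5.14, 5.05 and 5.01 in parental samples and 5.61, 6.18 and 6.04 in adapted samples, with adapted replicate 1 again nearest to the parental samples. Its log2 fold change was 0.88 (SE 0.14, 95% confidence interval 0.55 to 1.21; limma, adjusted p = 0.00149), and 1.05 without adapted replicate 1. TGFBR1, the kinase that phosphorylates SMAD2 and SMAD3, was at 2.75, 2.72 and 2.50 in parental and 3.47, 3.34 and 3.02 in adapted samples. Here adapted replicate 1 was the highest, and replicate 3 the lowest of its group. The log2 fold change was 0.62 (SE 0.13, 95% confidence interval 0.31 to 0.92; limma, adjusted p = 0.00534). The genes lie at chr3:30606502-30694142 and chr9:99104038-99154192, both on the plus strand.

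TGFBR3, betaglycan, which presents TGFB2 to the signalling receptors, was barely detected. The gene lies at chr1:91680343-91906335 on the minus strand. Its values were 0.09, 0.20 and 0.17 in parental and 0.42, 0.46 and 0.31 in adapted samples, so its adapted level, although higher in each sample (log2 fold change 0.24 in the fit without the filter; limma, adjusted p = 0.0276), was 0.315 ± 0.0710 FPKM (SD, n = 3) beside 60.1 FPKM of TGFB2. Of the summed FPKM of the 3 receptors, TGFBR2 held 85.7% ± 0.958 in parental and 86.8% ± 4.07 in adapted samples (SD, n = 3 each), and these shares overlapped. The FPKM ratio of TGFBR2 to TGFBR1 was 5.99, 5.73 and 6.70 in parental samples and 4.75, 7.82 and 9.16 in adapted samples, which overlapped too. Both overlaps came from adapted replicate 1. In the other adapted samples the TGFBR2 share was 88.3% and 89.9%, above the 3 parental samples, as the ratios were.

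Among 11 other receptors and co-receptors of the superfamily, 9 were tested, of which 2 rose, 3 fell and 4 were not called (median log2 fold change -0.05). With so few genes these shares are not far from the 30.7% and 26.2% of all tested rows. ENG, endoglin, a co-receptor related to TGFBR3, fell from 3.43 to 2.19 (limma, adjusted p = 4.74e-04). ACVRL1, a receptor of the list that was under the filter, went from 1.55 to 0.21. The fit without the filter called it lower (log2 fold change -1.34; limma, adjusted p = 4.59e-04), and it was named after its value was seen. BAMBI, a pseudoreceptor that lacks the kinase and dampens TGF-beta signalling, fell from 5.23 to 4.23 (limma, adjusted p = 0.00246). ACVR1B, the type I receptor for activins, fell by 0.25 (limma, adjusted p = 0.0185), a call that was lost without adapted replicate 2 (adjusted p = 0.0525), parental replicate 1 (adjusted p = 0.0794) or parental replicate 2 (adjusted p = 0.0698). The genes that rose were ACVR1 (log2 fold change 0.38; limma, adjusted p = 0.00446) and TGFBRAP1, a receptor-associated protein (log2 fold change 0.21; limma, adjusted p = 0.0224). The call of TGFBRAP1 was lost without adapted replicate 3 (adjusted p = 0.0511), and without parental replicate 1, 2 or 3 (adjusted p of 0.0837, 0.0902 and 0.0608).

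SMAD3 was the member with the highest level in parental cells and it fell. Its values were 5.66, 5.67 and 5.79 in parental samples and 5.27, 5.00 and 4.89 in adapted samples. All adapted samples were lower, and adapted replicate 1 was the least so. The log2 fold change was -0.65 (SE 0.10, 95% confidence interval -0.89 to -0.41; limma, adjusted p = 0.00134), or 51.2 FPKM in parental and 32.4 FPKM in adapted samples. SMAD2 was at 2.19, 2.12 and 2.12 in parental and at 2.33, 2.32 and 2.34 in adapted samples. These values did not overlap, but the difference of 0.19 (SE 0.07, 95% confidence interval 0.03 to 0.35; limma, adjusted p = 0.0504) did not pass the threshold, and without adapted replicate 1 it did (adjusted p = 0.0428). The FPKM ratio of SMAD3 to SMAD2 was 13.8, 14.9 and 16.2 in parental samples and 9.29, 7.74 and 7.08 in adapted samples. SMAD3 therefore had the higher level in all 6 samples, with a smaller lead in the adapted ones. SMAD3 lies at chr15:67063763-67195195 on the plus strand and SMAD2 at chr18:47808957-47931146 on the minus strand.

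SMAD4, the partner that SMAD2 and SMAD3 share, was at 2.98, 2.98 and 2.84 in parental and 3.20, 3.16 and 2.99 in adapted samples, and its log2 fold change of 0.19 was not called (limma, adjusted p = 0.0935), although it was without adapted replicate 3 (adjusted p = 0.0379). In a list of 25 SMAD partners and regulators that holds SMAD4, 24 were tested, of which 7 rose, 3 fell and 14 were not called (median log2 fold change 0.13). The share that rose is near the 30.7% of all tested rows, and the share that fell is under their 26.2%. SMAD7, the inhibitory SMAD that TGF-beta itself induces, rose from 2.57 to 3.20 (log2 fold change 0.63; limma, adjusted p = 0.00108). PMEPA1, another feedback inhibitor, which takes up SMAD2 and SMAD3, rose from 2.17 to 5.59 (log2 fold change 3.41; limma, adjusted p = 6.23e-06), and USP11, a deubiquitinase, rose by 0.63. The ubiquitin ligases SMURF1, RNF111 and TRIM33 fell by 0.28, 0.38 and 0.28 on the log2 scale. Other ubiquitin ligases of the list did not fall. SMURF2 rose by 0.55 (limma, adjusted p = 8.55e-04), NEDD4L rose by 0.22 (limma, adjusted p = 0.0167), and WWP1 was not called. SMURF2, NEDD4L and WWP1 are outside the rule by which genes were named and were added after their values were seen. The call of TRIM33 was lost without parental replicate 1 (adjusted p = 0.0519) or parental replicate 2 (adjusted p = 0.0619).

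**Figure D3:**
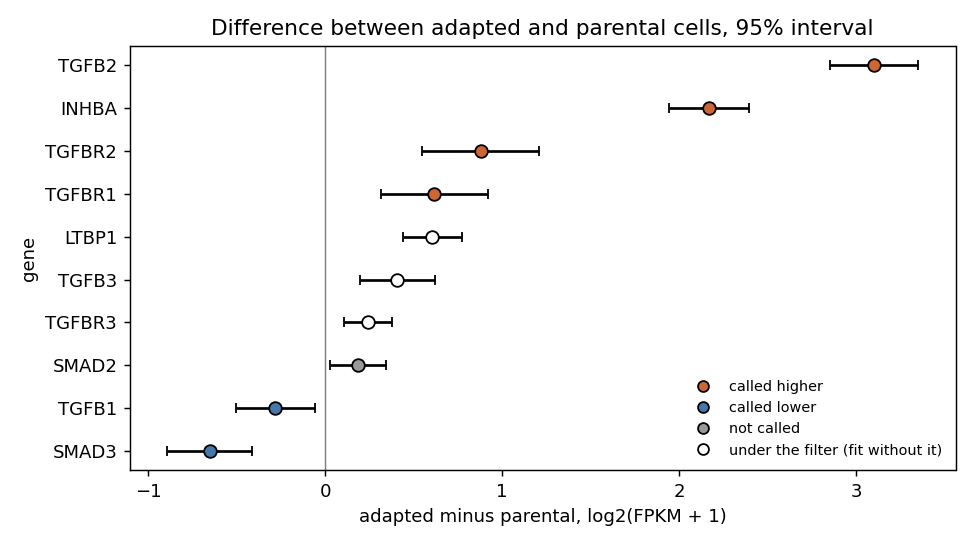
Log2 fold change (adapted minus parental) of each member with its 95% confidence interval, with colors for called higher, called lower and not called, and open points for members under the filter, taken from the fit without it. On this scale TGFB2 (3.10) and INHBA (2.17) stand apart from the other members, which lie between -0.65 (SMAD3) and 0.88 (TGFBR2). The added 1 compresses the change of the low members shown as open points. Their FPKM ratios, adapted to parental, were 3.11 (LTBP1), 2.81 (TGFBR3) and 1.90 (TGFB3), beside 1.89 for TGFBR2. The interval of SMAD2 lies above 0 although its adjusted p of 0.0504 missed the threshold.

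Since FPKM is scaled to length, the levels of the members can be set in order within each group. In parental cells the order of mean FPKM was SMAD3 (51.2), TGFBR2 (32.5), TGFB1 (11.3), TGFB2 (6.08), TGFBR1 (5.33), SMAD2 (3.42), TGFB3 (0.578), LTBP1 (0.329), INHBA (0.120) and TGFBR3 (0.112). The 3 values of INHBA and TGFBR3 overlapped, and those of every other pair of neighbours in this order did not. In adapted cells the order was TGFBR2 (61.5), TGFB2 (60.1), SMAD3 (32.4), TGFB1 (9.13), TGFBR1 (8.77), INHBA (4.04), SMAD2 (4.03), TGFB3 (1.10), LTBP1 (1.02) and TGFBR3 (0.315). Here the values overlapped between TGFBR2 and TGFB2, TGFB1 and TGFBR1, INHBA and SMAD2, and TGFB3 and LTBP1. TGFB2 and INHBA had each moved up this order, and TGFBR3 was last in both groups.

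Transcripts that TGF-beta is known to act on were read beside the members, from a list of 26 genes it induces and 5 it represses in epithelial cells. Of the induced list 24 were tested, of which 16 rose, 4 fell and 4 were not called, with a median log2 fold change of 1.08, where 30.7% of all tested rows rose and 26.2% fell. THBS1, described above, rose most among these. PMEPA1 and CTGF came next, in an order that depends on the pseudocount (3.41 and 3.06 as deposited, 3.71 and 3.76 with a pseudocount of 0.1). CTGF, a matrix-associated protein, was at 1.03, 1.27 and 1.08 in parental samples and 4.50, 4.11 and 3.96 in adapted samples (log2 fold change 3.06; limma, adjusted p = 6.95e-06). The 4 that fell were SNAI1, JUNB, BHLHE40 and KLF10, of which the last was named after its value was seen. SNAI1, a repressor of E-cadherin, fell from 2.87 to 0.55 (log2 fold change -2.32; limma, adjusted p = 3.51e-06), and it passed the filter only through its parental samples. SNAI2, which is among the 16 that rose, went from 0.81 to 2.80 (log2 fold change 1.99; limma, adjusted p = 1.01e-05). It passed the filter only through its adapted samples, and it too was named after its value was seen. JUNB fell by 2.00 and BHLHE40 by 1.66 on the log2 scale. Many genes of the list respond to other signals as well, and it is not specific to TGF-beta.

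**Figure D4:**
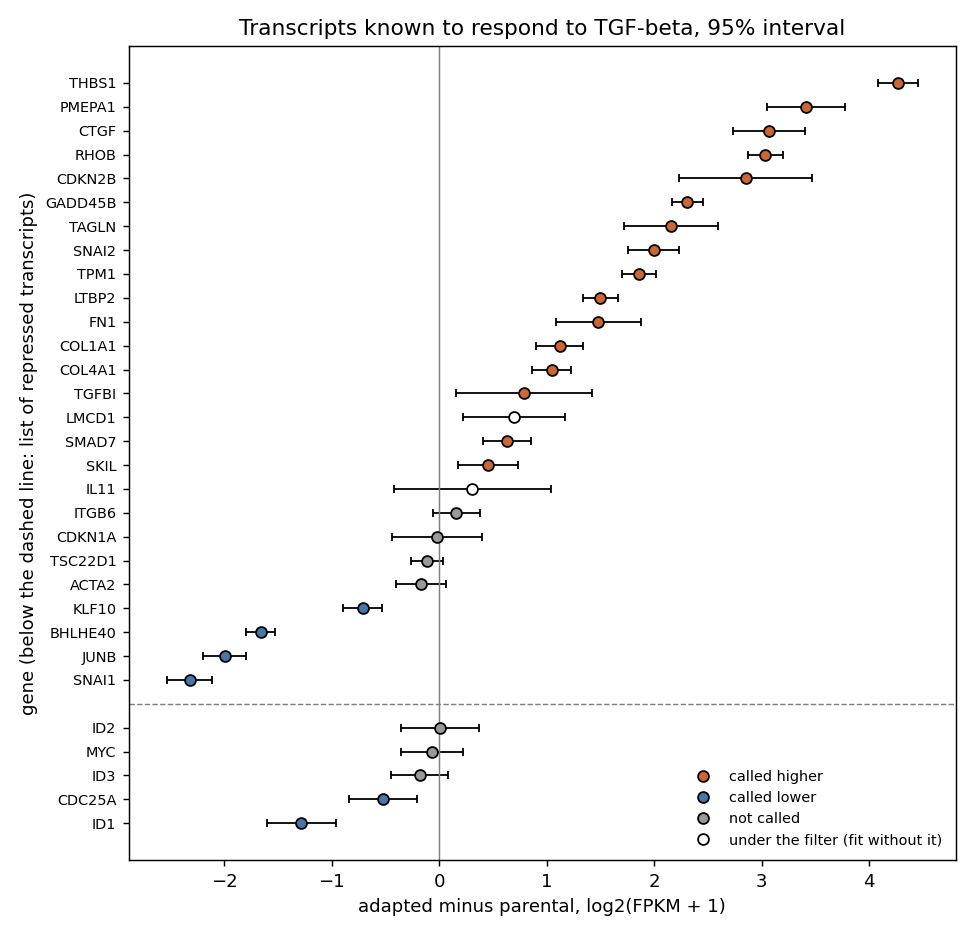
Log2 fold change (adapted minus parental) of the transcripts that TGF-beta induces (above the dashed line) or represses (under it), with their 95% confidence intervals, colors for the limma call and open points for genes under the filter, taken from the fit without it. Of the 24 tested induced transcripts 16 are called higher and 4 lower, and THBS1 has the highest value (4.27).

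Of the 5 transcripts that TGF-beta represses, all were tested, of which none rose, 2 fell and 3 were not called. ID1, an inhibitor of differentiation factors, fell from 8.26 to 6.97 (log2 fold change -1.28; limma, adjusted p = 2.33e-04). CDC25A, a phosphatase of the cell cycle, fell by 0.52 (limma, adjusted p = 0.0135), a call that was lost without parental replicate 3 (adjusted p = 0.0544). MYC, which TGF-beta turns off in normal epithelium, was at 6.68, 6.70 and 6.72 in parental samples and at 6.86, 6.35 and 6.69 in adapted samples. The groups overlapped and MYC was not called (log2 fold change -0.07; limma, adjusted p = 0.658). In a list of 13 other activin, nodal and GDF ligands and extracellular inhibitors, 3 were tested and 10 were under the filter. The 3 tested all rose, namely INHBB, FSTL3 and GDF11 (log2 fold change of the last 0.37; limma, adjusted p = 0.00388). Of those under the filter, the fit without it called FST higher. It called INHBE and LEFTY1 lower (log2 fold change -0.65 and -0.18; limma, adjusted p = 0.00299 and 0.0172). INHBE and LEFTY1 were named after their values were seen. Over the 6 pathway lists, with each gene counted once, 67 of 89 genes were tested, of which 28 rose, 13 fell and 26 were not called, beside 30.7% higher and 26.2% lower over all tested rows.

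Adapted replicate 1 stood apart from the other adapted samples. Over all 27216 rows, tested or not, it correlated with them at 0.991 each, against 0.996 between adapted replicates 2 and 3, and it was closer to the parental samples. Among the members it was the highest adapted sample for 4 (TGFB1, TGFBR1, SMAD3 and LTBP1), the lowest for 3 (TGFB2, TGFBR2 and INHBA) and in the middle for 3. Without it 5 members were called higher and 2 lower. The log2 fold change of TGFB2 was then 3.22 and that of INHBA 2.24. For the induced list the counts without it were 18 higher and 5 lower. These counts are to be read beside all tested rows, of which 7202 were called in either direction with it and 8370 without it.

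Markers of the labelled cell type were present in both groups. The 8 epithelial lung adenocarcinoma markers were all tested and summed to between 3843 and 3876 FPKM in parental and between 3571 and 3911 FPKM in adapted samples, of which 2 rose, 4 fell and 2 (EPCAM and CDH1) were not called. Of 6 fibroblast markers none passed the filter. Their sum lay between 0.0461 and 0.0744 FPKM in parental samples and was 2.38, 0.635 and 0.608 FPKM in adapted samples, most of it COL3A1 and LUM, while the group means of PDGFRA, PDGFRB, DCN and DPT were under 0.05 FPKM in both groups. The 6 leukocyte markers summed to between 1.65 and 1.75 FPKM in parental and between 0.619 and 1.16 FPKM in adapted samples, with CD3E at 0 in all 6. The 5 endothelial markers summed to between 1.13 and 1.88 FPKM in parental and between 1.53 and 3.51 FPKM in adapted samples. Within that sum CDH5 had a mean of 0.156 FPKM in parental and 2.39 FPKM in adapted samples, and PECAM1 of 1.35 and 0.0634 FPKM. The fibroblast sum was higher in adapted samples, as TGFB2 and INHBA were. Among adapted samples it was highest in replicate 1, where TGFB2 and INHBA were lowest. Its part in those results was not tested.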

How the data were processed

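RNA sequencing of 6 H1975 samples was analyzed from 1 deposited table. The authors deposited log2 values, whose unit is not named and was taken as log2(FPKM + 1) from the values. The linear values summed to 375342 to 387753 per sample, and the depth is unknown. The labels give hg38, and the submitters' processing notes name Bowtie2 2.1.0, STAR and edgeR without a role. The study's methods name a test for counts, in whose place limma was run here. The labels describe digestion of linear RNA as for circular RNA, and the methods name total RNA. Which applies to this table is not known. Medium and vehicle are also described differently or not at all.

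Rows with a mean of at least 1 were tested with limma 3.58.1 in R 4.3.3 (lmFit, eBayes with a trend), unpaired and two-sided, and p-values were adjusted by Benjamini-Hochberg (threshold 0.05). In 147 rows the values of 1 group lie off a grid of 6 decimals on the linear scale. No member and no gene of the pathway lists is among them. Shares, ratios and lists are described without a test. Named genes are the 10 members, up to 3 called higher and up to 3 called lower per list with the largest change and no overlap, and SMAD4, SMAD7, FST and MYC. Results for 1 further gene are not reported here, and it is left out of the lists. The members and lists were chosen with earlier results of these data known. Alternatives were other pseudocounts, filters, scalings and thresholds, the replicate block and leaving out each sample. Python 3.11.15 was used for tables and motif searches. A planned comparison of protein sequences was not made.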

Additional observations from a re-analysis of the deposited data

How the results depend on the processing

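None of the 7 tested members changed direction in any of the 19 alternatives that tested it. With a filter at a mean of 3, INHBA, TGFBR1 and SMAD2 were not tested, and TGFB3, LTBP1 and TGFBR3 have a value only with no filter. TGFB2 ranged from 3.02 to 3.28, TGFBR1 from 0.52 to 0.75, TGFBR2 from 0.76 to 1.05 and SMAD3 from -0.76 to -0.57 on the log2 scale, and INHBA from 2.12 to 4.25. Of these 5, only SMAD3 and the receptors had adjusted p-values that came above 0.01 in any alternative, and none lost its call at 0.05. The count of members called higher (4) was 2 with a filter at a mean of 3 and 8 with no filter, and 4 to 5 when each sample was left out in turn. The count called lower (2) was 1 with no filter, 1 at an adjusted p under 0.01 and 1 with an equal sum per sample without mitochondrial genes, and 1 to 2 when each sample was left out. In all of these TGFB1 was the member lost. Adjusted p of TGFB1 was 0.0991 with no filter and 0.0653 with that equal sum. SMAD2 gained a call with no filter (adjusted p = 0.0267), with eBayes without a trend (0.0331), with an equal sum per sample over all genes (0.0483) or over all but the mitochondrial ones (0.0288), without the NewGene_ rows (0.0489) and without adapted replicate 1 (0.0428). Rows called over the whole table (7202) came to 4532 with a filter at a mean of 3, where fewer rows were tested, and to between 5763 and 8370 when each sample was left out. MYC, not called, turned from -0.07 to 0.0739 without adapted replicate 2 (range -0.18 to 0.07 when each sample was left out).

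Same-numbered parental and adapted samples did not deviate together (correlations of -0.051, -0.031 and -0.020), so the numbers were not taken as pairs. With the replicate block 6761 rows were called, 4 members higher and 2 lower, and TGFBRAP1 lost its call (adjusted p = 0.0552). With 3 samples a group and unknown depth, the counting error of low values could not be estimated. Such values are those of TGFBR3, LTBP1, TGFB3 and parental INHBA. RNA levels give no measure of secreted or active ligand or of SMAD phosphorylation.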
